A study of Mus musculus with 30 samples.

Results

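The 8 genes described here encode or feed the enzymes that finish the sugar chains on the surface of the gut epithelium and its mucus. They are Fut2, B3galt5, B4galnt2, Cmah, C1galt1, Gcnt3, St3gal4 and Fut4, and they were taken by symbol from count tables of 24746 gene symbols, in which all 8 have a row in each of 30 libraries. The mice were of the C3H/HeOuJ strain, RNA was extracted from pieces of intestine with all their cell types, and each transcript was read as a short tag near its poly(A) tail. There were 10 groups of 3 libraries. Distal colon was taken at 10 weeks of age from 4 groups. They were colonized mice given 1.5% dextran sulfate sodium (DSS) for 4 days and then water for 2 days (COL DSS), specific-pathogen-free mice given the same course (SPF DSS), untreated colonized mice (COL) and untreated specific-pathogen-free mice (SPF). COL mice were born germ-free and were given an SPF microbiota when they were 5 weeks old. Untreated COL, SPF and germ-free (GF) mice of 10 weeks and of 6 weeks gave the terminal ileum. The set holds no GF colon, so the effect of a microbiota was compared in ileum and the effect of DSS, a detergent-like polymer that injures the colonic epithelium, in colon. Whether the 3 libraries of a group stand for 3 mice is not said in the labels, so p-values measure the spread among libraries, and that spread may be technical.

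Mucins and membrane glycoproteins of the gut carry O-glycans, chains that start from a single sugar on serine or threonine. C1galt1 adds galactose to make the core 1 structure, and Gcnt3 adds the branch that makes cores 2 and 4. B3galt5 places galactose in the linkage of type 1 chains, on which Fut2 adds the terminal fucose of the H antigen; Fut2 is known in mice as a gene that bacterial colonization switches on in small-intestinal epithelium. B4galnt2 adds the terminal N-acetylgalactosamine of the Sda antigen, St3gal4 caps chains with sialic acid, and Fut4 adds the fucose of Lewis x. Cmah is the exception among the 8: it is no transferase, but converts the CMP-bound donor of one sialic acid, Neu5Ac, into that of another, Neu5Gc.

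The libraries held 3830539 to 6791455 reads assigned to genes in colon and 2233837 to 9088573 in ileum. Levels are given as CPM, the reads of a gene scaled to the library's total of reads assigned to genes. Because tags depend on each gene's 3′ end, levels are compared between samples of 1 gene and not between genes. The labelled tissues carried their own markers. The summed level of 8 ileal enterocyte genes was 34.1 to 292 CPM in colon and 19192 to 48954 CPM in ileum. Of the colonocyte genes, Aqp8 had 230 to 1580 CPM in colon and at most 3 reads in any ileum library, and Car1 had 289 to 2328 CPM in colon and at most 17 reads in ileum. Not all colonocyte genes separated the tissues: Saa1 had 1313 to 3116 CPM in colon and up to 2843 CPM in ileum, Cyp2c55 had 2.83 to 888 CPM in colon and 1.7 to 69.5 CPM in ileum, and the sums overlapped, at 3483 CPM or more in colon and up to 3686 CPM in ileum. The summed level of 9 epithelial genes lay between 6067 and 10457 CPM in every group. In whole tissue, fewer cells of a type and less RNA per cell cannot be told apart.

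A gene was called when its edgeR quasi-likelihood test gave a Benjamini-Hochberg adjusted p under 0.05 over all genes tested in that tissue. Across the 4 colon groups, 4 of 7 genes tested differed (Fut2, B3galt5, Gcnt3 and Fut4), where 20.5% of all 12855 genes did; B4galnt2 had too few colon reads to be tested. Across the 6 ileum groups, 4 of 8 differed (Fut2, B3galt5, Cmah and Gcnt3), where 15.3% of 13233 genes did. The 8 genes were chosen with earlier results of these data known, so setting them beside all genes is a description and no test. Fut2, B3galt5 and Gcnt3 thus varied in both tissues, Cmah in ileum and Fut4 in colon; C1galt1 and St3gal4 were called in neither.

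**Figure D1:**
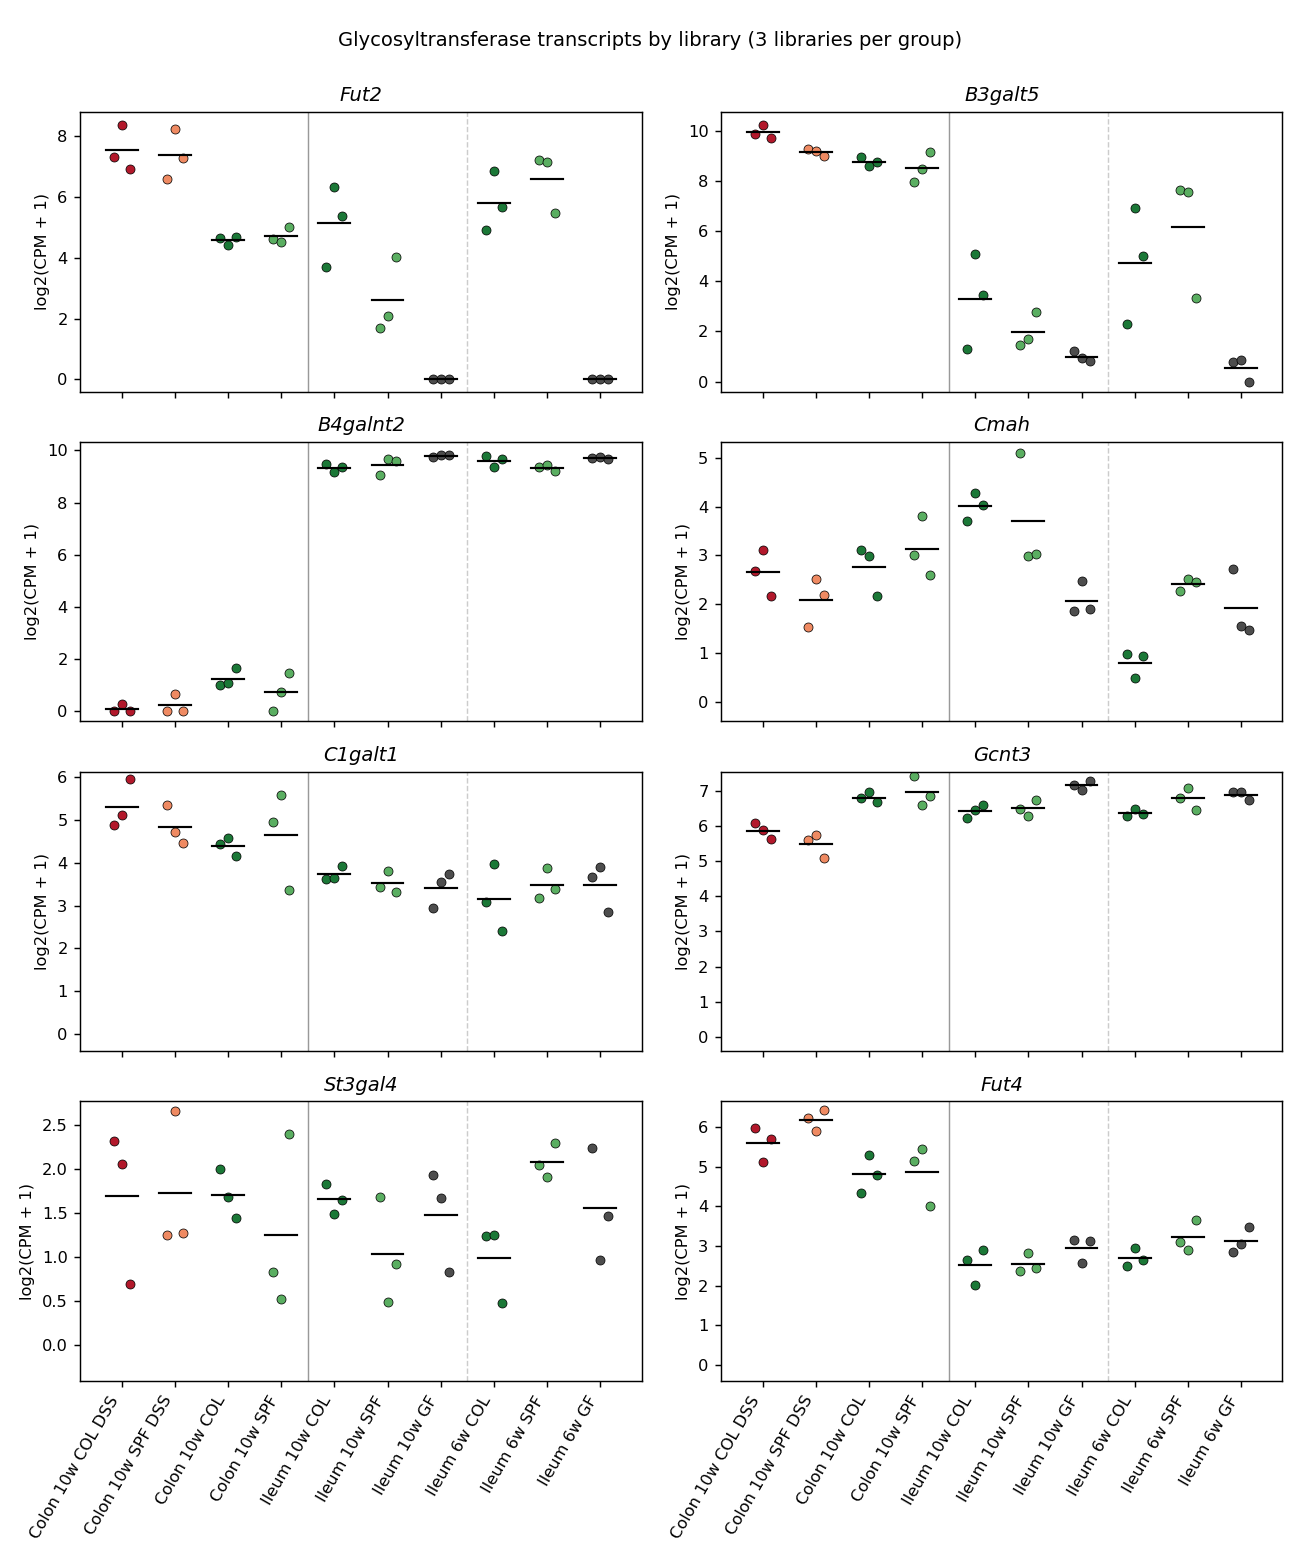
Level of each gene in all 30 libraries as log2(CPM + 1), one point per library and a bar at the mean of the 3 log2 values of a group. Colon groups stand left of the solid line, ileum at 10 weeks between the lines and ileum at 6 weeks right of the dashed line. Fut2 is at 0 in the 6 GF libraries, and B4galnt2 is at 2.12 CPM or less in every colon library and at 531 CPM or more in every ileum library.

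The promoter sequences of B3galt5 and B4galnt2 are shown because these were the members whose level differed most between the 2 tissues, in opposite directions. They are RefSeq windows on build GRCm38.p6 (mm10), from 250 bases before to 50 bases from an annotated start, and come from the reference strain, not from C3H/HeOuJ. B3galt5 has 3 such windows, of which the first and the third are shown; the tags lie at the other end of the transcript, so they do not tell which start was used. Capitals in the first window mark a CDX-like match, CATAAA read on the opposite strand, at bases 110 to 115, and a STAT-like match, TTCNNNGAA, at bases 241 to 249, just before the start site. The other windows printed hold no match and have no capitals.
B3galt5, chr16:96235551-96235850, plus strand: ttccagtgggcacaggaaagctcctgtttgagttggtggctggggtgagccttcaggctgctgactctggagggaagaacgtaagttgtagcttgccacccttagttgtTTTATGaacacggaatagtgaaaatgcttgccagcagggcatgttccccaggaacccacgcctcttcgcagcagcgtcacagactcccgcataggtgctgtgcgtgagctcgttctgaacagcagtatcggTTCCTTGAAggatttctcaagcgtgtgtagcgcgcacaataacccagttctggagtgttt
B3galt5, chr16:96280782-96281081, plus strand: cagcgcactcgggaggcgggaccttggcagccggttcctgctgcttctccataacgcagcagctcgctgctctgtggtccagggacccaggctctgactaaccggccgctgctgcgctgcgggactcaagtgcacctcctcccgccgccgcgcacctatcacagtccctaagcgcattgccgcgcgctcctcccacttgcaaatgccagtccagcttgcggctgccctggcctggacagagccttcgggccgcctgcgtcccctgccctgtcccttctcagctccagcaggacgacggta
B4galnt2, chr11:95914822-95915121, minus strand: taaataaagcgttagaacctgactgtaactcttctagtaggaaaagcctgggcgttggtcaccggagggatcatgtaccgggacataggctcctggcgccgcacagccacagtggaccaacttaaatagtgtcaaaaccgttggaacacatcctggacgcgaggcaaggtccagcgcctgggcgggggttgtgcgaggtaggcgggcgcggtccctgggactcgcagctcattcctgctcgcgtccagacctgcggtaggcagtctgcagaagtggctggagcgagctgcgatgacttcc

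Motifs were searched on both strands of all 32851 windows of 300 bases. The STAT-like motif TTCNNNGAA occurs in 8.3% of them, the CDX-like motif CATAAA in 11.9%, the GATA-like motif AGATAA in 11.2%, the HNF4-like motif CAAAGTCCA in 0.475%, an HNF1 motif in 0.00913%, an interferon-response motif in 3.44% and an NF-kB motif in 8.46%. RefSeq windows were matched for 6 of the 8 genes, 9 windows in all, and 2 of these 9 held any match. The second was a Cmah window, with AGATAA at bases 95 to 100. A match of a few letters is a description of the sequence and not a binding site.

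Fut2 (chr7:45648591-45666394, minus strand, by GENCODE vM21 on GRCm38) went with the presence of a microbiota in ileum. At 10 weeks it had 12, 79.4 and 40.6 CPM in COL ileum and 2.21, 3.25 and 15.2 CPM in SPF ileum. At 6 weeks it had 29.2, 115 and 49.2 CPM in COL ileum and 147, 139 and 42.9 CPM in SPF ileum. It had 0 reads in each of the 6 GF libraries, 3 at 10 weeks and 3 at 6 weeks. Every colonized library therefore stood above every GF library. The lowest colonized value was in SPF ileum at 10 weeks, where SPF 3 overlapped the COL libraries. SPF 3 had the fewest reads assigned to genes of all 30 libraries, 2233837, and its Fut2 value came from 34 reads. It also had 201 CPM of 7 smooth muscle genes, against 1456 and 1848 CPM in SPF 1 and 2.

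Because GF ileum had no Fut2 read, fold changes against it are lower bounds, set against a floor of 3 reads over the 3 GF libraries (0.168 CPM at 6 weeks and 0.186 CPM at 10 weeks), and they cover counting error only. At 6 weeks Fut2 was at least 370-fold higher in COL than in GF ileum (adjusted p = 0.021) and at least 678-fold higher in SPF than in GF ileum (adjusted p = 0.0094). At 10 weeks it was at least 238-fold higher in COL than in GF ileum (adjusted p = 0.022). The bound for SPF over GF at 10 weeks was 25.1-fold, from 65 reads in all, and this comparison was not called (adjusted p = 0.23), whereas DESeq2 (adjusted p = 4.2e-05) and a fit of only these 6 libraries (adjusted p = 0.03) called it. Such fits of only the 6 libraries compared lost the call of SPF over GF at 6 weeks (adjusted p = 0.09). They also lost that of COL over GF at 6 and at 10 weeks. Leaving out single libraries moved the adjusted p of COL over GF past the threshold both at 6 weeks, without COL 2 or 3 or any GF library, and at 10 weeks, without the same ones (highest 0.087 at 6 weeks and 0.1 at 10 weeks), while Fut2 stayed at 0 in GF ileum. Over the 12 colonized and 6 GF libraries Fut2 was called (adjusted p = 0.0021), and this held without each library.

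These comparisons were read against all genes. In SPF over GF ileum at 6 weeks 2 of the 8 genes were called, Fut2 and B3galt5, both higher, where 4.37% of genes were called higher. In COL over GF ileum at 6 weeks the only one called was Fut2 (2.78% called higher). In COL over GF ileum at 10 weeks Fut2 and Cmah were called higher (5.1% of genes) and Gcnt3 lower (4.04%), and in SPF over GF ileum at 10 weeks the only one called was Cmah, higher (4.22%). With only the groups compared, the last comparison lost the call of Cmah (adjusted p = 0.062) and gained that of Fut2. For all colonized over GF libraries, Fut2 and B3galt5 were called higher (9.39%) and Gcnt3 lower (7.97%). The 2 comparisons at each age share their GF libraries.

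COL and SPF ileum were not told apart by any of the 8 genes at either age. Fut2 was 2.93 ± 1.12 (SE) higher on the log2 scale in COL than in SPF ileum at 10 weeks, with a 95% interval of 0.36 to 5.50, an unadjusted p of 0.03 and an adjusted p of 0.56. At 6 weeks the difference was -0.75 ± 0.88 (adjusted p = 0.9). In these comparisons 0.0907% of genes at 10 weeks and 0.0982% at 6 weeks were called at all.

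With age, Fut2 in SPF ileum averaged 6.89 ± 7.23 CPM at 10 weeks and 110 ± 58.2 CPM at 6 weeks (SD, n = 3 each). The groups do not overlap, the log2 fold change was -4.48 ± 1.13 and the adjusted p was 0.095, so the change was not called. In COL ileum Fut2 averaged 44 ± 33.8 CPM at 10 weeks and 64.5 ± 44.9 CPM at 6 weeks, with overlapping groups and a log2 fold change of -0.79 ± 0.90 (adjusted p = 0.72). The age changes of COL and SPF mice differed by 3.68 ± 1.43 on the log2 scale, with an adjusted p of 0.43; 0.166% of genes were called in that comparison, which was added after the data were seen. None of the 8 genes was called for age in SPF ileum (1.37% of genes called) or in GF ileum (0.0302%) by edgeR. DESeq2 called 3 of them in SPF ileum, with adjusted p of 0.0056 for Fut2, 0.0031 for B3galt5 and 0.026 for Cmah. It also called more of all genes there, 592 in place of the 181 of edgeR.

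In colon Fut2 rose after DSS, and of the 7 genes tested it had the largest log2 fold change. It had 156, 327 and 119 CPM in COL DSS colon, against 24.3, 20.4 and 24.7 CPM in COL colon, and 95.4, 298 and 152 CPM in SPF DSS colon, against 23.5, 21.9 and 31.1 CPM in SPF colon. All 6 DSS libraries stood above all 6 untreated ones, and the untreated libraries spanned a narrow range. The log2 fold change was 3.18 ± 0.41 in COL mice (adjusted p = 0.00033) and 2.90 ± 0.41 in SPF mice (adjusted p = 0.00042). Per 1000 CPM of the summed epithelial genes, Fut2 had 25.5 ± 13.8 CPM in COL DSS colon and 3.07 ± 0.489 CPM in COL colon, and 21.5 ± 10.9 CPM in SPF DSS colon and 3.07 ± 0.208 CPM in SPF colon (SD, n = 3 each).

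**Figure D2:**
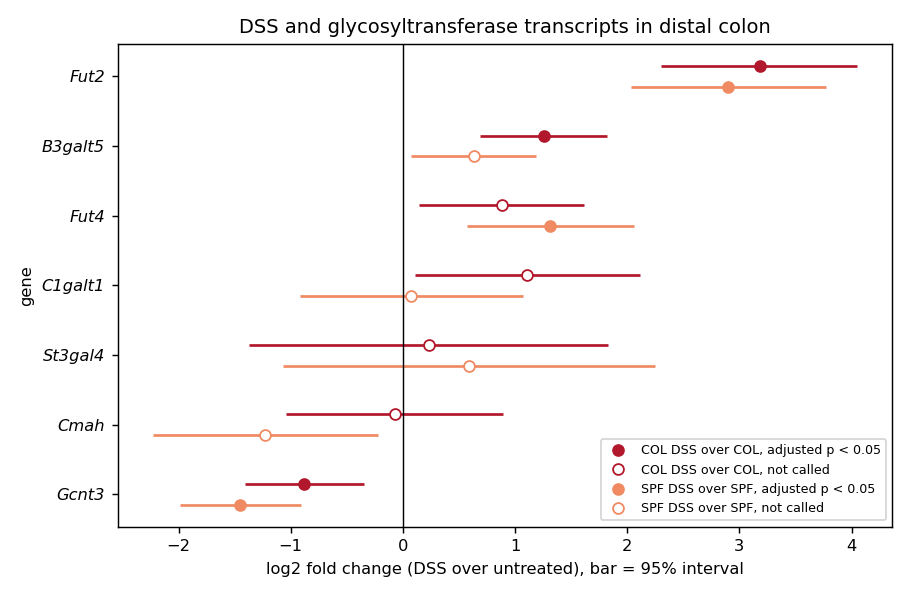
Log2 fold change of 7 genes with DSS in distal colon, with 95% intervals from the fit to 12 colon libraries; filled points have an adjusted p under 0.05. In both COL and SPF mice Fut2 lies right of 0 and Gcnt3 left of it with filled points; B3galt5 is filled in COL mice and Fut4 in SPF mice.

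In COL DSS over COL colon 2 of the 7 genes tested were called higher, Fut2 and B3galt5, where 4.14% of all genes were, and Gcnt3 was called lower (3%). In SPF DSS over SPF colon Fut2 and Fut4 were called higher (12.2%) and Gcnt3 lower (11.9%). For the mean of both DSS effects Fut2, B3galt5 and Fut4 were called higher (15.9%) and Gcnt3 lower (15.7%). The median log2 fold change of the 7 genes in that comparison was 0.59, and that of all genes was -0.01. No DSS effect of the 7 genes differed between COL and SPF mice by the interaction test, in which edgeR called 0% of 12855 genes and DESeq2 16, with 8.73% at an unadjusted p under 0.05.

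B3galt5 (chr16:96235801-96319859, plus strand), the galactosyltransferase of type 1 chains, was a colon gene that appeared in colonized ileum. In untreated colon it had 485, 385 and 429 CPM in COL mice and 244, 355 and 559 CPM in SPF mice. In ileum at 10 weeks it had 1.46, 33.3 and 9.98 CPM in COL mice, 1.77, 2.23 and 5.82 CPM in SPF mice and 1.31, 0.935 and 0.776 CPM in GF mice. At 6 weeks it had 3.87, 120 and 30.7 CPM in COL ileum, 195, 188 and 9.12 CPM in SPF ileum and 0.696, 0.804 and 0 CPM in GF ileum. All 12 colonized ileum libraries stood above all 6 GF libraries, some by little and some by over 100 CPM, and libraries of 1 group differed widely.

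Colon exceeded ileum by 4.79 ± 1.05 on the log2 scale in untreated COL mice at 10 weeks (adjusted p = 0.0016) and by 7.01 ± 1.26 in SPF mice (adjusted p = 0.00019). In ileum the log2 fold change of SPF over GF at 6 weeks was 8.36 ± 1.86 (adjusted p = 0.016), from 3267 reads in the 3 SPF libraries and 8 in the 3 GF libraries; without any 1 of the GF libraries the call was lost (highest adjusted p 0.079). The COL over GF value at 6 weeks was 7.01 ± 1.87 with an adjusted p of 0.055, and at 10 weeks it was 3.87 ± 1.77 with an adjusted p of 0.22. SPF over GF at 10 weeks was at 1.47 ± 2.25 (adjusted p = 0.8). Over all colonized and GF libraries B3galt5 rose by 5.18 ± 1.28 (adjusted p = 0.014). In SPF ileum it had 3.27 ± 2.22 CPM at 10 weeks and 131 ± 106 CPM at 6 weeks (SD, n = 3 each), a log2 fold change of -5.77 ± 1.55 that was not called (adjusted p = 0.082).

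Colonocyte markers moved with B3galt5 in part. The summed level of 6 colonocyte genes was 1105, 1622 and 2749 CPM in COL, 832, 807 and 1032 CPM in SPF and 748, 665 and 811 CPM in GF ileum at 10 weeks. At 6 weeks it was 1371, 2615 and 3392 CPM in COL, 3463, 3686 and 1164 CPM in SPF and 703, 638 and 662 CPM in GF ileum, so it was high in the same SPF libraries as B3galt5. Within that sum Saa1, a serum amyloid gene, had 587 to 2843 CPM in SPF and 0.817 to 5.34 CPM in GF ileum at 6 weeks. Car1 and Aqp8 had 0 reads in the 3 SPF ileum libraries at 6 weeks, where B3galt5 had 3267. The part of other colonocyte transcripts in the B3galt5 result was not tested.

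B3galt5 rose with DSS in colon, by 0.94 ± 0.19 on the log2 scale for the mean of both kinds of mouse (adjusted p = 0.0015). It had 922, 1189 and 837 CPM in COL DSS colon, above all 3 COL libraries given above, and 611, 584 and 505 CPM in SPF DSS colon, which overlap the SPF libraries at their highest value of 559 CPM. In log2 terms the change was 1.26 ± 0.27 in COL mice (adjusted p = 0.0095; 0.05 without COL 2) and 0.63 ± 0.27 in SPF mice (adjusted p = 0.095; 0.01 without SPF 3). All 3 COL DSS libraries exceeded all 3 SPF DSS libraries, by 0.77 ± 0.27 on the log2 scale, but the adjusted p was 0.53. The sum of 7 smooth muscle genes was 1243 to 3951 CPM in COL DSS and 4676 to 4998 CPM in COL colon. It was 937 to 2680 CPM in SPF DSS and 5087 to 6130 CPM in SPF colon. The part of this change in tissue make-up in the B3galt5 result was not tested. COL DSS over SPF DSS colon had 0.00778% of genes called and none of the 7, and COL over SPF untreated colon had 0% of 12855 called by edgeR and 28 by DESeq2, with 7.69% at an unadjusted p under 0.05.

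Fut2 and B3galt5 followed each other across libraries. Pearson's r of their log2 CPM was 0.90 over the 18 ileum libraries (Spearman's rho 0.97) and 0.80 over the 12 colon libraries (rho 0.78). These values describe libraries that share their groups and their 6 libraries near 0, and carry no test. Untreated colon had 20.4 to 31.1 CPM of Fut2 with 244 to 559 CPM of B3galt5.

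**Figure D3:**
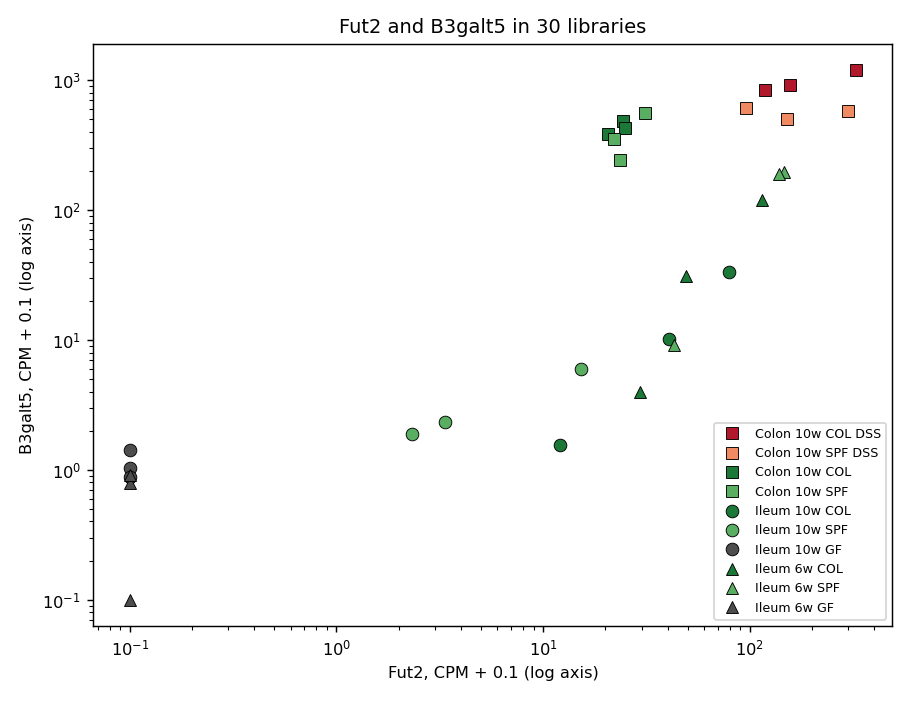
Level of B3galt5 against Fut2 in each of the 30 libraries, both as CPM + 0.1 on log axes; squares are colon, circles ileum at 10 weeks and triangles ileum at 6 weeks. GF libraries sit at the left edge with 0 Fut2 reads, colonized ileum libraries run up to 147 CPM of Fut2 and 195 CPM of B3galt5, and colon libraries lie above them at 244 CPM of B3galt5 or more.

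B4galnt2 (chr11:95865943-95914891, minus strand), which makes the Sda epitope, was near 0 in colon and abundant in ileum. It had 0 to 2.12 CPM in the 12 colon libraries, 5 of which had no read, and 531 to 912 CPM in the 18 ileum libraries. Colon was lower than ileum by a log2 fold change of -8.93 ± 0.41 in COL mice (adjusted p = 4.8e-17) and -9.75 ± 0.44 in SPF mice (adjusted p = 2.4e-17) at 10 weeks. In ileum the 6 group means lay between 645 and 888 CPM and no comparison within ileum was called. The lowest adjusted p values were 0.14 for COL over GF at 10 weeks, at -0.45 ± 0.18, and 0.15 for COL ileum at 10 over 6 weeks, at -0.50 ± 0.18. Without SPF 1 at 10 weeks these became 0.044 and 0.047.

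In colon B4galnt2 had 1 read in the 3 COL DSS libraries, against 23 in the 3 COL libraries, and 3 reads in the 3 SPF DSS libraries, against 12 in the 3 SPF libraries. The ratio of pooled CPM was 0.0442 in COL mice (95% interval 0.00107 to 0.272) and 0.22 in SPF mice (0.0399 to 0.817). The intervals are exact binomial ones and cover counting error only. In the same comparisons the ileal enterocyte marker sum was 50.5 to 222 CPM in COL DSS and 34.4 to 102 CPM in COL colon, and 43.7 to 292 CPM in SPF DSS and 34.1 to 47 CPM in SPF colon.

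Fut4 (chr9:14748320-14752393, minus strand), the fucosyltransferase of Lewis x, was higher in colon than in ileum and rose with DSS. In untreated colon it had 19.1, 38.2 and 26.6 CPM in COL mice and 34.5, 42.4 and 15 CPM in SPF mice, against 3.06 to 6.42 CPM in COL and 4.13 to 6.09 CPM in SPF ileum at 10 weeks. Colon over ileum gave a log2 fold change of 2.42 ± 0.36 in COL mice (adjusted p = 3.2e-06) and 2.53 ± 0.38 in SPF mice (adjusted p = 2.6e-06). After DSS it had 61.4, 34 and 51.1 CPM in COL DSS colon, of which the lowest overlaps the COL libraries, and 73.8, 58.6 and 85 CPM in SPF DSS colon, all above the SPF libraries. The log2 fold change was 0.88 ± 0.35 in COL mice (adjusted p = 0.14) and 1.31 ± 0.35 in SPF mice (adjusted p = 0.014), and 1.09 ± 0.25 for their mean (adjusted p = 0.0034).

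The summed level of a list of neutrophil genes was higher in DSS than in untreated colon, and Fut4 is also expressed by myeloid cells. The sum of 8 neutrophil genes was 1131 to 1423 CPM in COL DSS and 558 to 606 CPM in COL colon, and 1455 to 4079 CPM in SPF DSS and 339 to 812 CPM in SPF colon, with Elane at 0 reads in all 4 groups, S100a9, Csf3r and Ngp also at 0 in COL colon and Mpo in SPF colon. The sum thus rests on the other genes of the list. The sum of 9 macrophage and monocyte genes overlapped between DSS and untreated colon. It was 113 to 126 CPM in COL DSS and 102 to 158 CPM in COL colon, and 108 to 192 CPM in SPF DSS and 120 to 155 CPM in SPF colon. The part of either sum in the Fut4 result was not tested. In ileum Fut4 was called in no comparison, with 3.06 to 11.6 CPM over the 18 libraries.

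Colon over ileum at 10 weeks called 4 of 8 genes in each kind of mouse. In COL mice B3galt5 and Fut4 were higher in colon (11.9% of 13807 genes called higher) and B4galnt2 and Cmah lower (14.3%). In SPF mice B3galt5, C1galt1 and Fut4 were higher (15.3%) and B4galnt2 lower (17.2%). Fut2 was called in neither; its log2 fold change had a 95% interval of -2.57 to 0.58 in COL mice (adjusted p = 0.36) and was 2.04 ± 0.90 in SPF mice (adjusted p = 0.093; 0.024 without SPF ileum 3).

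Gcnt3 (chr9:70031496-70038088, minus strand), the core 2 and core 4 branching enzyme, was the member that fell with DSS and was lower in colonized than in GF ileum. It had 66.8, 57.8 and 48.4 CPM in COL DSS colon, against 109, 123 and 101 CPM in COL colon, and 48, 52.7 and 32.8 CPM in SPF DSS colon, against 171, 96.4 and 115 CPM in SPF colon. No DSS library reached an untreated one. The log2 fold change was -0.88 ± 0.25 in COL mice (adjusted p = 0.044) and -1.45 ± 0.26 in SPF mice (adjusted p = 0.0012), and -1.17 ± 0.18 for their mean (adjusted p = 0.00019). The COL result lost its call in 7 of the fits that left out 1 library (highest adjusted p 0.15), which were those without SPF DSS 2, any COL DSS library or any COL library.

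In ileum at 10 weeks Gcnt3 had 74.2, 86.4 and 94.8 CPM in COL mice, 88, 77.3 and 106 CPM in SPF mice and 143, 129 and 153 CPM in GF mice, so both colonized groups lay below the GF group. The log2 fold change was -0.73 ± 0.19 for COL over GF (adjusted p = 0.012; 0.056 without GF 3) and -0.60 ± 0.19 for SPF over GF (adjusted p = 0.055). At 6 weeks it had 77.4, 88.3 and 80.7 CPM in COL ileum, 111, 134 and 87.1 CPM in SPF ileum and 123, 123 and 105 CPM in GF ileum. COL lay below GF without overlap at -0.27 ± 0.19 (adjusted p = 0.51), and SPF overlapped GF at 0.14 ± 0.18 (adjusted p = 0.75). For all colonized over GF libraries the value was -0.37 ± 0.11 (adjusted p = 0.024; up to 0.066 without GF 3 at 10 weeks or GF 2 at 6 weeks).

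Goblet cell markers moved with Gcnt3 in colon and in COL over GF ileum at 10 weeks. In COL over GF ileum at 6 weeks both also lay below GF without overlap, though Gcnt3 was not called (edgeR adjusted p = 0.51). In SPF over GF ileum at 10 weeks the goblet sums overlapped, with SPF 3 at 22031 CPM, and Gcnt3 did not overlap. In SPF over GF ileum at 6 weeks goblet markers did not move with Gcnt3, since the goblet sums of SPF lay below GF without overlap and Gcnt3 overlapped. The sum of 9 goblet genes was 8789 to 11772 CPM in COL DSS and 16628 to 18323 CPM in COL colon, and 1590 to 9235 CPM in SPF DSS and 18062 to 22876 CPM in SPF colon. In ileum at 10 weeks it was 12927 to 16432 CPM in COL, 14766 to 22031 CPM in SPF and 21864 to 24251 CPM in GF mice. At 6 weeks it was 14088 to 17795 CPM in COL, 15707 to 16473 CPM in SPF and 21620 to 22339 CPM in GF mice. Its part in the Gcnt3 results was not tested.

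Cmah (chr13:24327404-24477377, plus strand), which makes the donor of Neu5Gc, was the only one of the 8 called by edgeR between the ages, in COL ileum. COL mice of 10 weeks had carried their microbiota since 5 weeks of age, as had those of 6 weeks, so age and time since colonization cannot be told apart in them. It had 12, 18.5 and 15.3 CPM in COL ileum at 10 weeks, against 0.968, 0.394 and 0.914 CPM at 6 weeks, a log2 fold change of 4.05 ± 0.58 (adjusted p = 0.00027; 1.62% of genes called higher). In SPF ileum it had 33.1, 6.9 and 7.16 CPM at 10 weeks and 3.79, 4.73 and 4.49 CPM at 6 weeks, at 1.69 ± 0.47 (adjusted p = 0.065). In GF ileum it had 2.61, 4.52 and 2.72 CPM at 10 weeks and 5.57, 1.93 and 1.77 CPM at 6 weeks, at 0.20 ± 0.53 (adjusted p = 1). The age groups do not overlap in COL or in SPF ileum and overlap in GF ileum.

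Against GF ileum at 10 weeks Cmah was higher in COL ileum by 2.19 ± 0.49 (adjusted p = 0.0045) and in SPF ileum by 2.26 ± 0.49 (adjusted p = 0.0053). The SPF value rests on SPF 1, the library with 33.1 CPM: without it the log2 fold change was 1.15 and the adjusted p 0.2. At 6 weeks COL over GF was -1.66 ± 0.62 (adjusted p = 0.14), and COL over SPF was -2.42 ± 0.59 (unadjusted p = 4e-04, adjusted p = 0.14; 0.026 to 0.46 over the alternatives, called without SPF 1 at 10 weeks), with no overlap of COL with either group, from 14 reads in the 3 COL libraries. The difference between the COL over GF effects at 10 and at 6 weeks was 3.85 ± 0.79 (adjusted p = 0.04; 0.128% of genes called higher). In SPF over GF the corresponding difference had a 95% interval of 0.05 to 2.95 (adjusted p = 0.57; 0.0151% called).

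Transcripts of B cells and of other immune cells moved in part with Cmah in ileum. The sum of 8 B cell genes was 111, 330 and 133 CPM in COL, 670, 9.53 and 3.58 CPM in SPF and 60.5, 1.25 and 3.88 CPM in GF ileum at 10 weeks. At 6 weeks it was 1.16, 1.58 and 0.914 CPM in COL, 1.7, 2.53 and 4.05 CPM in SPF and 87, 0 and 1.23 CPM in GF ileum. The SPF library with the highest Cmah at 10 weeks also had the highest B cell sum, and so did the GF library with the highest Cmah at 6 weeks. Among GF libraries at 10 weeks the opposite held, since GF 1 had the highest B cell sum and the lowest Cmah. Cd79a and Fcer2a had 0 reads in COL ileum at 6 weeks, and Fcer2a and Pax5 in SPF ileum at 6 weeks. SPF 2 and 3 at 10 weeks, with B cell sums of 9.53 and 3.58 CPM, had 6.9 and 7.16 CPM of Cmah, above the 3 GF libraries. The same SPF libraries had 269 and 599 CPM of 8 T cell and intraepithelial lymphocyte genes and 1763 and 1661 CPM of 6 plasma cell genes, against 1.87 to 6.97 CPM and 543 to 663 CPM in GF ileum. In COL ileum the lymphocyte sum was 112 to 117 CPM at 10 weeks and 12.5 to 15.5 CPM at 6 weeks. The plasma cell sum was 2140 to 2252 CPM in COL ileum at 10 weeks and 455 to 610 CPM at 6 weeks, and the sum of 9 macrophage and monocyte genes was 173 to 214 CPM at 10 weeks and 65 to 89 CPM at 6 weeks. In SPF ileum at 6 weeks the lymphocyte sum was 115 to 266 CPM, against 2.41 to 26.9 CPM in GF ileum. The plasma cell sum at that age was 1440 to 1476 CPM in SPF and 446 to 607 CPM in GF ileum. Cmah at 6 weeks had 3.79 to 4.73 CPM in SPF and 1.77 to 5.57 CPM in GF ileum, which overlap (edgeR adjusted p = 0.43). The part of these cell types in the Cmah results was not tested.

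**Figure D4:**
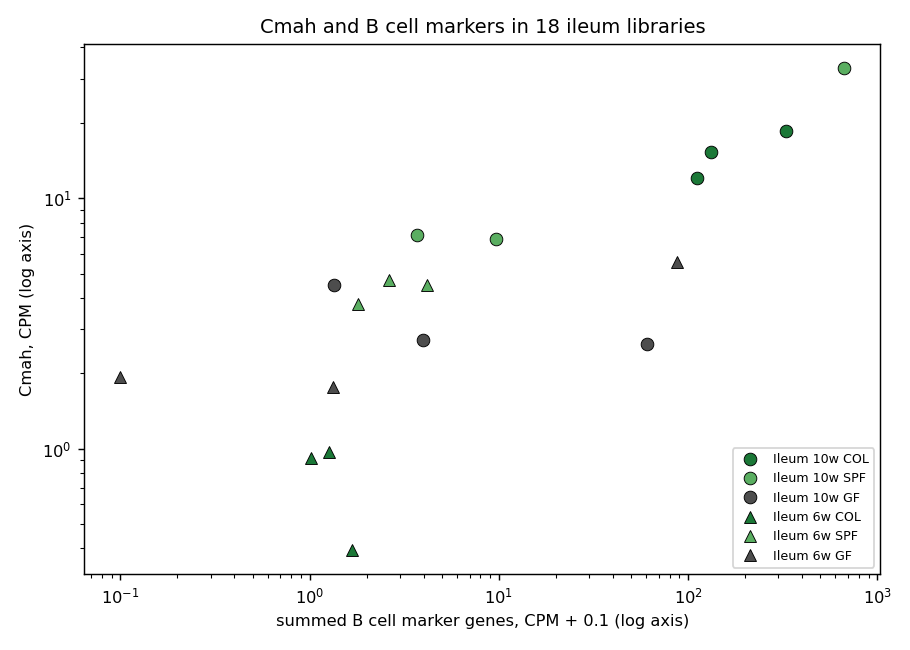
Cmah in CPM against the summed level of 8 B cell marker genes as CPM + 0.1 in the 18 ileum libraries, both on log axes; circles are 10 weeks and triangles 6 weeks. The 3 COL libraries at 10 weeks and SPF 1 at 10 weeks lie at the upper right, with B cell sums of 111 CPM or more and Cmah of 12 CPM or more, and the 3 COL libraries at 6 weeks lie lowest, at under 1 CPM of Cmah.

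In colon Cmah had 5.45, 7.6 and 3.5 CPM in COL DSS, 1.91, 4.74 and 3.54 CPM in SPF DSS, 7.64, 6.97 and 3.47 CPM in COL and 7.05, 12.9 and 5.06 CPM in SPF mice. The SPF DSS libraries lay below the SPF ones, at -1.23 ± 0.48 with an adjusted p of 0.07 (0.032 without SPF 3), and the COL DSS libraries overlapped the COL ones at -0.07 ± 0.46 (adjusted p = 0.95). Colon was lower than ileum in COL mice by -1.41 ± 0.48 on the log2 scale (adjusted p = 0.026; up to 0.12 without COL colon 3, COL ileum 2 or COL ileum 3). In SPF mice the value was -0.99 ± 0.47 (adjusted p = 0.11).

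C1galt1 (chr6:7844842-7875687, plus strand), the core 1 galactosyltransferase, differed between the tissues in SPF mice. It had 30, 47.3 and 9.34 CPM in SPF colon, a wide spread, against 8.95 to 13 CPM in SPF ileum at 10 weeks, and the groups overlap. Colon over ileum gave 1.32 ± 0.46 (adjusted p = 0.028), and the call was lost without SPF colon 1 or 2 or SPF ileum 1 or 3 (highest adjusted p 0.24). In COL mice it had 20.6, 23.1 and 17 CPM in colon and 11.3 to 14.3 CPM in ileum, with no overlap and a value of 0.63 ± 0.44 (adjusted p = 0.32). After DSS it had 28.3, 33.6 and 61 CPM in COL DSS colon, above the COL libraries, at 1.11 ± 0.47 (adjusted p = 0.17; 0.033 without SPF 3), and 39.9, 25.2 and 21 CPM in SPF DSS colon, within the range of the SPF libraries, at 0.07 ± 0.47. Ileal levels were 4.31 to 14.6 CPM, and no comparison within ileum was called.

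St3gal4 (chr9:35046576-35119268, minus strand), a sialyltransferase, was near the limit of detection. It had 0.446 to 5.31 CPM in colon and 0.392 to 3.91 CPM in ileum, with as few as 2 reads in a library, and was called in no comparison. In COL over SPF ileum at 6 weeks it was at -1.65 ± 0.67 (unadjusted p = 0.02, adjusted p = 0.55), where the COL libraries at 0.392 to 1.38 CPM lay below the SPF ones at 2.75 to 3.91 CPM. In GENCODE vM21 its exons share 412 bases with 4930581F22Rik on the opposite strand, which also has a row in the tables. The strand setting of the counting is not given in the sources used here, so reads of the pair cannot be told apart.

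Other genes of the pathway were described from lists on the supply of nucleotide sugars, the start and cores of O-glycans, chain extension, other fucosylation, other sialylation, sulfation, mucins and other secreted or membrane acceptors, and signals known to induce epithelial fucosylation. The following totals leave out the list of inducing signals, which is described further below. Of the 90 genes of the other lists tested in ileum, 19 were called higher and 8 lower in all colonized over GF libraries, where 9.39% of all genes were called higher and 7.97% lower. Of the 87 tested in colon, 14 were called higher and 16 lower in the mean DSS effect, where 15.9% of all genes were called higher and 15.7% lower. In colon and for lower calls in ileum these totals lie near the shares over all genes, against which the counts of each list are also to be read.

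In colonized ileum the largest change among named genes of chain extension was in B3gnt7, which extends poly-N-acetyllactosamine chains. It had 50.9 to 186 CPM in COL, 37.1 to 103 CPM in SPF and 7.64 to 9.36 CPM in GF ileum at 10 weeks, and 72.8 to 147 CPM in COL, 54.3 to 223 CPM in SPF and 6.4 to 9.98 CPM in GF ileum at 6 weeks. No colonized library overlapped GF, and the log2 fold change was 3.79 ± 0.46 (adjusted p = 7.2e-05). In chain extension 6 of 20 genes tested rose, among them the galactosyltransferases B4galt5, by 0.81 ± 0.10 (adjusted p = 2.6e-06), and B4galt1, by 0.86 ± 0.17 (adjusted p = 0.00095), and 2 fell, among them B4galt6, by -0.54 ± 0.11 (adjusted p = 0.00083).

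Among the enzymes and transporters that supply donor sugars, only enzymes were called in colonized over GF ileum, all of them higher. Of 18 supply genes 4 rose and none fell in colonized ileum (9.39% and 7.97% of all genes). Gmds, the first enzyme of GDP-fucose synthesis, changed by 0.76 ± 0.17 (adjusted p = 0.004), Nans, a sialic acid synthase, by 0.63 ± 0.11 (adjusted p = 1e-04), and Uap1 and Gfpt1, of UDP-N-acetylglucosamine synthesis, by 0.48 ± 0.10 and 0.46 ± 0.11. The median log2 fold change of the 18 genes was 0.13, and that of all genes 0.00.

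Sulfation and sialylation genes went both ways in colonized ileum. Of 9 sulfation genes 1 rose, Chst4, a sulfotransferase for N-acetylglucosamine, and 3 fell. Gal3st2, a galactose sulfotransferase, had 53.3 to 78.1 CPM in COL, 59.1 to 84.4 CPM in SPF and 138 to 146 CPM in GF ileum at 10 weeks, and fell by 0.96 on the log2 scale in all colonized libraries (SE 0.10, adjusted p = 9.1e-08). Of 14 sialylation genes 2 rose, St3gal1 at 0.88 ± 0.20 and St8sia4 at 1.35 ± 0.28, and 3 fell, among them St6galnac2 at -0.95 ± 0.22 and the sialidase Neu1 at -0.76 ± 0.13. The transmembrane mucin Muc13 was the 1 of 4 acceptors tested that changed, at 1.27 ± 0.16 (adjusted p = 1.6e-06).

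**Figure D5:**
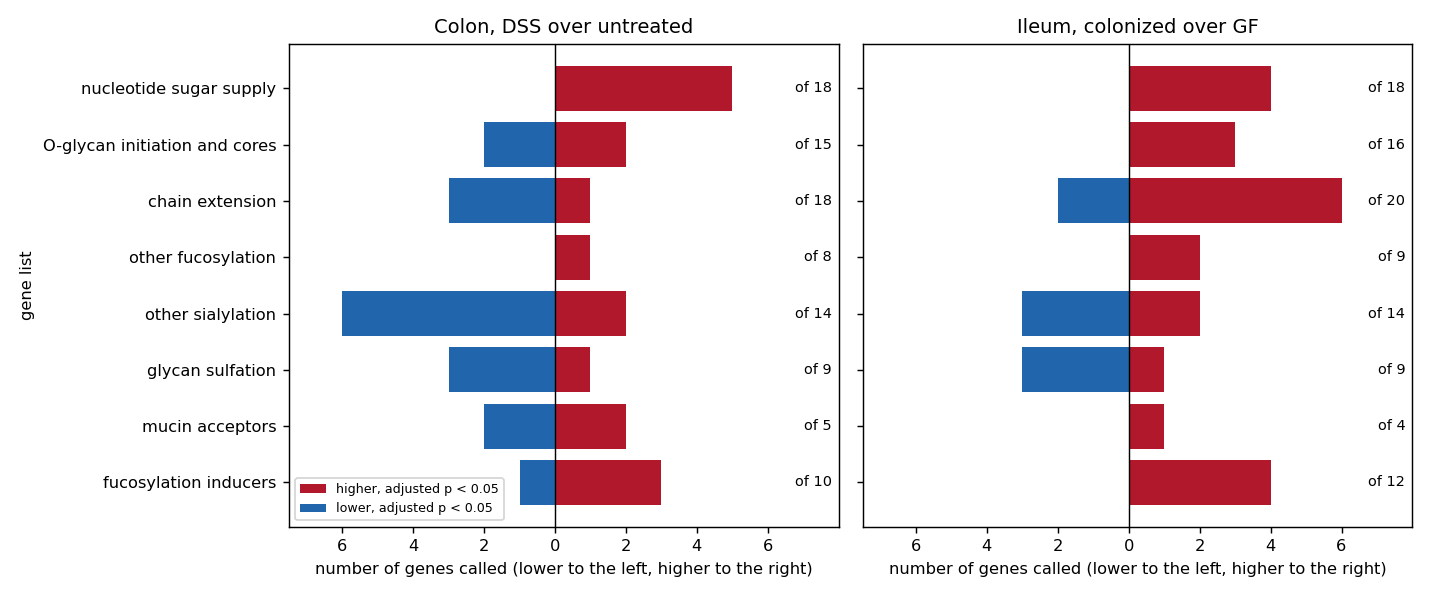
Number of genes of each pathway list called higher (right of 0) or lower (left of 0), with the number tested at the right edge. The left panel shows the mean DSS effect in colon and the right panel all colonized over GF ileum. In sialylation 6 of 14 genes were lower after DSS, and in chain extension 6 of 20 were higher in colonized ileum.

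Interleukin-22, lymphotoxin and the signalling below them are known to drive Fut2 in mouse epithelium. Il22 itself had at most 2 reads in any ileum library and 0 in all 12 colon libraries, so no change in it was detectable at this depth. Of 12 such genes tested in ileum 4 rose in colonized mice (9.39% of all genes). They were Socs3, a feedback target of STAT3, at 1.89 ± 0.34 (adjusted p = 0.0011), Il1b at 1.86 ± 0.44 (adjusted p = 0.0033), Il10ra at 1.10 ± 0.36 (adjusted p = 0.036) and Stat3 at 0.40 ± 0.10 (adjusted p = 0.0071). Il10ra did not go one way in all groups: at 6 weeks it had 0.653 to 1.55 CPM in COL and 2.73 to 4.41 CPM in GF ileum, without overlap. The receptor subunit Il22ra1 was at -0.01 ± 0.12 and Lta at 1.83 ± 0.96 (adjusted p = 0.22).

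In colon 3 of 10 of these genes rose with DSS (15.9% of all genes), Socs3 by 3.34 ± 0.43 (adjusted p = 0.00012), Il1b by 3.91 ± 0.98 (adjusted p = 0.013) and Myd88 by 0.82 ± 0.15 (adjusted p = 0.00054). For Il1b 1 SPF DSS library reached 189 CPM. The other two had 5.92 and 11.4 CPM, COL DSS colon had 4.71 to 8.23 CPM and COL colon 1.28 to 4.32 CPM, and the COL change was not called (1.13 ± 1.22, adjusted p = 0.64). Socs3 had 35.3 to 75.2 CPM in COL DSS and 3.3 to 12.5 CPM in COL colon, and 28.5 to 151 CPM in SPF DSS and 4.09 to 9.4 CPM in SPF colon, without overlap. The soluble interleukin-22 antagonist Il22ra2 fell, with a 95% interval of its log2 fold change of -2.37 to -0.63 (adjusted p = 0.011).

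In the mean DSS effect 5 of 18 supply genes rose and none fell (15.9% and 15.7% of all genes). In SPF mice 2 rose and 1 fell (12.2% and 11.9%). Slc35c1, the Golgi GDP-fucose transporter, had 464 to 726 CPM in COL DSS and 249 to 329 CPM in COL colon, and 422 to 612 CPM in SPF DSS and 264 to 394 CPM in SPF colon. The groups do not overlap in either kind of mouse, and the mean log2 fold change was 0.84 ± 0.17 (adjusted p = 0.0019). Gmds rose by 0.69 ± 0.20 (adjusted p = 0.014). Fut8, the core fucosyltransferase of N-glycans, rose by 0.92 ± 0.19 (adjusted p = 0.0016) and was the only one of 8 other fucosylation genes called in the mean effect.

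With DSS 6 of 14 sialylation genes tested fell and 2 rose, where 15.7% of all genes fell and 15.9% rose. St8sia5 changed by -2.63 ± 0.37 (adjusted p = 0.00014), and St6gal1 had 40.6 to 67.9 CPM in COL DSS and 79.3 to 107 CPM in COL colon, and 6.61 to 29.6 CPM in SPF DSS and 69.1 to 190 CPM in SPF colon, at -1.77 ± 0.31 (adjusted p = 0.00076). The sulfate transporter Slc26a2 fell by 1.80 (SE 0.22, adjusted p = 2.3e-05). Among acceptors, the secreted mucin Muc2 changed by -1.20 ± 0.35 (adjusted p = 0.017) and Fcgbp, a mucus protein of goblet cells, by -1.55 ± 0.27, while the membrane mucins Muc4 and Muc1 changed by 1.00 ± 0.24 and 1.11 ± 0.32. Galnt3, which starts O-glycans, rose by 1.21 ± 0.19 (adjusted p = 0.00018). The goblet marker sums given beside Gcnt3 apply here too.

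Between the tissues, sialic acid genes were called in both kinds of mouse. Gne, which makes the sialic acid precursor, had 198 ± 30.3 CPM in COL colon and 25.1 ± 3.12 CPM in COL ileum, and 273 ± 61.1 CPM in SPF colon and 26.5 ± 9.82 CPM in SPF ileum (SD, n = 3 each). Its log2 fold change was 2.90 ± 0.36 in COL mice (adjusted p = 4.2e-07) and 3.27 ± 0.37 in SPF mice (adjusted p = 7.3e-08). St6galnac6 had 229 ± 52.9 CPM in COL colon and 1.68 ± 0.12 CPM in COL ileum, and the sialyltransferases called higher in colon also included St3gal6, at 3.67 ± 0.28 in COL and 3.74 ± 0.28 in SPF mice. Of 15 sialylation genes 7 were higher and 2 lower in COL colon, where 11.9% of all genes were called higher and 14.3% lower. In SPF colon 9 were higher and 3 lower, where the shares were 15.3% and 17.2%. The counts of lower genes lie near those shares.

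B4galnt2 was not the only ileal transferase. Gcnt4, a branching enzyme like Gcnt3, had 1.32 ± 0.664 CPM in COL colon and 73 ± 33.3 CPM in COL ileum, at -5.85 ± 0.58 (adjusted p = 1.2e-08), and 3.53 ± 2.18 CPM in SPF colon and 60.7 ± 1.66 CPM in SPF ileum, at -4.17 ± 0.52 (adjusted p = 5.3e-07). The ganglioside enzyme B4galnt1 had 8.54 ± 4.01 CPM in COL colon and 146 ± 21.5 CPM in COL ileum, at -4.17 ± 0.29 (adjusted p = 3.6e-13). Fut9, which like Fut4 makes Lewis x, had 55.6 ± 6.73 CPM in COL colon and 0.179 ± 0.178 CPM in COL ileum, and 79.6 ± 9.3 CPM in SPF colon with no read in SPF ileum.

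The genes most like each member were ranked by Pearson's r of log2 CPM within a tissue, over 8933 genes in ileum and 9200 in colon. Over the 18 ileum libraries Fut2 was followed most closely by Tifa, an adaptor of innate signalling (r = 0.98), Dmbt1, a secreted scavenger protein (r = 0.97), and Kctd5 (r = 0.97). Tifa had 134 to 225 CPM in COL, 70.8 to 149 CPM in SPF and 46 to 56.2 CPM in GF ileum at 10 weeks, in the same order as Fut2. B3galt5 was followed by Steap1, Bcl2l15 and Stom (r = 0.95 each). Over the 12 colon libraries the closest genes were Cpne8, Lypd6b and Tmem181c-ps for Fut2 (r = 0.97, 0.96 and 0.96) and Kcnq1ot1, Ybx1 and Dnajc10 for B3galt5 (r = 0.93, 0.91 and 0.91).

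Cmah in ileum was followed by St6gal1, a sialyltransferase also abundant in B cells (r = 0.93), Arhgap30 (r = 0.92) and Pld3 (r = 0.90). B4galnt2 in ileum was followed by Pdzk1, AA986860 and Car12 (r = 0.89, 0.89 and 0.87), and Gcnt3 by Acbd4 (r = 0.80) in ileum and Rin2, Rnf167 and Paqr5 (r = 0.96, 0.96 and 0.95) in colon. Fut4 was followed by Pbx2 (r = 0.84) in ileum and Nsf, Otud6b and Copz1 (r = 0.96, 0.95 and 0.94) in colon. C1galt1 was followed by Tor1aip2 and Sh3yl1 in colon (r = 0.95 each) and by Dnajc21 in ileum (r = 0.73), and St3gal4 by Rnf145 in colon (r = 0.95) and Lgals8 in ileum (r = 0.74). Among the members themselves, Gcnt3 ran against Fut2 in colon (r = -0.82) and Cmah against B4galnt2 in ileum (r = -0.72). These libraries share groups and depth, the closest genes are high by selection, and the correlations are given with no p.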

How the data were processed

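The 30 deposited tables hold raw counts of reads per gene symbol, 1 table per library. Per the labels' protocols, the library kit was QuantSeq 3′ mRNA-Seq for the Ion Torrent; per the submitters' processing notes, Trimmomatic 0.36, FastQC 0.11.5, STAR 2.5.3a and HTSeq were used with mm10. HTSeq's version, its annotation and whether it counted by strand are not given in the sources used here. Of the reads listed, 44.6 to 54.1% were assigned to genes; the 5 summary lines were left out.

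Counts were fitted in R 4.3.3 with edgeR 4.0.16 (TMM, filterByExpr, robust quasi-likelihood test, two-sided), for 12 colon libraries (12855 genes), 18 ileum libraries (13233) and all 30 across tissues (13807), with 1 mean per group and Benjamini-Hochberg adjustment over all genes tested. Calls have an adjusted p under 0.05; errors of fold changes are SE. Log2 CPM for correlations used a prior count of 2 and genes with a mean of at least 3. The difference of the age changes of COL and SPF ileum was added after seeing the data. The fit was tested on simulated data.

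Alternatives were DESeq2 1.42.0, its size factors in edgeR, no filter, only the groups compared, replicate numbers as a block and leaving out each library. Replicate numbers come from the sample titles. Deviations from the group means of same-numbered libraries had correlations over 0.1 for each of 3 pairs in a single comparison, ileum of SPF and GF mice aged 10 weeks (0.2455, 0.1891 and 0.1595). The members, gene lists and comparisons were chosen with earlier results of these data known. Named are all 8 members, up to 4 called genes with the smallest p per list and comparison, the inducer genes, and the 3 genes most like each member, leaving out predicted genes; not all are printed. Locations are from GENCODE vM21 and promoters from RefSeq.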

Additional observations from a re-analysis of the deposited data

Results flagged for a closer look

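In ileum, the COL over GF difference of Cmah was not the same in the groups of 10 and of 6 weeks by a test of the difference itself. All COL mice were colonized at 5 weeks of age, so age and time since colonization cannot be told apart. The log2 fold change of COL over GF at 10 weeks exceeded that at 6 weeks by 3.85 ± 0.79 (SE; edgeR adjusted p = 0.04). COL ileum had 12, 18.5 and 15.3 CPM at 10 weeks and 0.968, 0.394 and 0.914 CPM at 6 weeks, and GF ileum had 2.61, 4.52 and 2.72 CPM at 10 weeks and 5.57, 1.93 and 1.77 CPM at 6 weeks. The call was lost in 10 of the fits that left out 1 library, and the adjusted p ranged from 0.0013 to 0.18 over all alternatives. The summed B cell markers were 111 to 330 CPM in COL ileum at 10 weeks and 0.914 to 1.58 CPM at 6 weeks; lymphocyte, plasma cell and macrophage sums moved with them, and their part was not tested.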

How the results depend on the processing

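Of the values followed for a member in a comparison under an alternative, 3478 stayed on their side of the threshold, 48 lost the call and 42 gained it. A change of sign with a call in either fit occurred 0 times. Signs did change among values called in neither fit, as for C1galt1 in SPF DSS and Cmah in COL DSS colon. Most of the values followed were not called in the main fit. DESeq2 called 2 members in place of 1 for COL over GF ileum at 6 weeks, 1 in place of 0 for COL over SPF ileum at 6 weeks, 3 in place of 1 for SPF over GF ileum at 10 weeks and 3 in place of 0 for SPF ileum at 10 over 6 weeks. It also called B3galt5 for COL over GF ileum at 10 weeks and Cmah for all colonized over GF ileum. Over all genes DESeq2 called 868 in place of 614 for COL over GF ileum at 6 weeks. At 10 weeks it called 1108 in place of 821 for SPF over GF and 1554 in place of 1209 for COL over GF ileum. For all colonized over GF ileum it called 2606 in place of 2298. Without the filter on low counts SPF over GF ileum at 10 weeks had 2 called and SPF ileum at 10 over 6 weeks 1. Over all genes 808 and 235 were called in that setting. With only the groups compared, SPF over GF and COL over GF ileum at 6 weeks had 0 called, in place of 2 and 1. Over all genes 1604 and 769 were called there, in place of 1018 and 614. Fut2 also lost its call with only the groups compared for COL over GF ileum at 10 weeks.

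Leaving out each library in turn gave 1 to 4 members called for COL DSS and 3 to 5 for SPF DSS colon. In ileum it gave 0 to 2 for COL over GF and 1 to 2 for SPF over GF at 6 weeks, 1 to 4 for COL over GF and 0 to 2 for SPF over GF at 10 weeks, and 0 to 1 for COL over SPF at 6 weeks. For age it gave 1 to 2 in COL and 0 to 1 in SPF ileum, 0 to 1 for the Cmah difference between ages and 0 to 1 for the difference of age changes between COL and SPF. In the same fits the count of all genes called ran from 376 to 1183 for COL DSS and 1915 to 3409 for SPF DSS colon. In ileum at 6 weeks it ran from 311 to 775 for COL over GF and 513 to 1221 for SPF over GF. At 10 weeks it ran from 713 to 1571 and from 437 to 1010 for these. For age it ran from 54 to 744 in COL and 0 to 416 in SPF ileum. The ranges of members are to be read against these counts. The causes were not tested.

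The replicate block changed the count of called members in no comparison. That count stayed at 1 for SPF over GF ileum at 10 weeks, with 750 genes called in place of 821. In this comparison the deviations of same-numbered libraries correlated at 0.2455, 0.1891 and 0.1595. The labels do not say whether same-numbered libraries were paired. Counts of all genes moved by over 1.5 times in several comparisons. COL DSS colon had 918 called, 1463 by DESeq2, 1839 with only its groups and 376 without COL 1. SPF DSS colon had 3097, with 1728 in only its groups and 1915 without SPF DSS 3. Ileum SPF over GF had 1018 at 6 weeks (1604 in only its groups, 513 without SPF 1) and 821 at 10 weeks (502 and 437 without GF 3). Age in COL ileum had 335 (725 by DESeq2, 54 without COL 3 at 6 weeks), and age in SPF ileum 181 (592 by DESeq2, 109 with the replicate block, 0 without SPF 2 at 6 weeks). DESeq2 also called 62 in place of 13 genes for COL over SPF ileum at 6 weeks, 46 in place of 12 at 10 weeks (6 with the replicate block), 10 in place of 4 for age in GF ileum, 154 in place of 19 for the age difference of COL over GF (29 with the replicate block), 30 in place of 2 for that of SPF over GF, 111 in place of 22 for the difference of age changes between COL and SPF, and 6 in place of 1 for COL DSS over SPF DSS colon. Colon over ileum in SPF mice had 4484, and 2551 with only its groups.

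Depth limits St3gal4 everywhere, B4galnt2 in colon and B3galt5 in GF ileum, which had 8 to 16 reads per group.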
